A study of Mus musculus with 383 samples.

Results

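Cirbp and Rbm3 are 2 of the 19324 genes named in the annotation of the arrays, and they were chosen by name, as the cold-inducible RNA-binding protein genes. They were followed in 383 Affymetrix mouse genome arrays of bulk brain tissue from 117 males of a (C57BL/6J x 129S1/SvImJ) intercross in the F2 generation, in which each animal carries its own mix of the parents' alleles. The arrays comprise 98 of cortex, 83 of hippocampus and 94 of hypothalamus, with the rest from thalamus, and 51 mice gave all 4 regions. Every mouse had the same history and no group was left untreated. Behavioural tests began at 7 weeks of age, electrodes for sleep recording were implanted at 10 weeks, and recordings covered a baseline, a recovery from sleep deprivation that lasted 6 h and a recovery from restraint that lasted 1 h. After an undisturbed interval, tissue was taken at 16 weeks of age, 6 to 7 h after lights on in a cycle of 12 h light and 12 h dark, so the arrays describe rested mice in the light phase and not the deprived or restrained state.

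Cirbp and Rbm3 encode small glycine-rich proteins with 1 RNA recognition motif, which bind messenger RNAs and act on their splicing, stability and translation. Their transcripts are known to accumulate when mammalian cells or tissues are mildly cooled and to fall with warming, the opposite of the heat shock chaperones, and in mice they fall in brain with enforced wakefulness, when brain temperature is raised. Cirbp is known in mouse fibroblasts to sustain the amplitude of circadian gene expression, and Rbm3 is known in mouse hippocampus to support synapse recovery after cooling.

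Both genes are measured by 3 of the 45037 probe sets. Cirbp, on chromosome 10 at positions 80165990 to 80172786 of build GRCm38.p6, has 1 probe set, annotated to it alone. Rbm3, on chromosome X at 8138975 to 8145880, has 2 probe sets. The annotation assigns each of these also to Rbm3-ps, a pseudogene on chromosome 1 at 150264926 to 150266073, so signal of the gene and of its copy cannot be told apart in either. In the text, Rbm3 alone means the one with the higher mean over the arrays and the second Rbm3 probe set means the other; the panel titles of the plots give the array's identifiers.

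The promoter of Cirbp is shown because it carries an octamer known as a mild-cold response element, TCCCCGCC. Also shown are promoters of 2 chaperone genes with lower transcripts in mice with high Rbm3, Hsph1 in thalamus and Chordc1 in the hippocampus. Dnajb1, a chaperone gene also lower with Rbm3 in thalamus, was searched but its sequence is not shown. Sequences are RefSeq promoters of build GRCm38.p6, 250 bases before to 50 after a start site, read on the gene's strand. Capitals mark the octamer in Cirbp, and matches to the heat shock element cores GAANNTTC and TTCNNGAA in Hsph1, a cytosolic Hsp110 chaperone, and Chordc1, a co-chaperone of Hsp90. The table holds 2 start sites for Cirbp, of which the first is shown, 2 overlapping ones for Hsph1, and none for Rbm3.
Cirbp, chr10:80167589-80167888, plus strand: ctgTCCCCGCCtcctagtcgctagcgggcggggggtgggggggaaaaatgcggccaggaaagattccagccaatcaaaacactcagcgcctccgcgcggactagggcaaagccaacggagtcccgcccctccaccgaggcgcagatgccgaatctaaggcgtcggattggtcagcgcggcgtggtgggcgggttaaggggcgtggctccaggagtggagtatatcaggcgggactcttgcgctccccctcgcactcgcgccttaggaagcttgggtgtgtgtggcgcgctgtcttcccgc
Hsph1, chr5:149636287-149636586, minus strand: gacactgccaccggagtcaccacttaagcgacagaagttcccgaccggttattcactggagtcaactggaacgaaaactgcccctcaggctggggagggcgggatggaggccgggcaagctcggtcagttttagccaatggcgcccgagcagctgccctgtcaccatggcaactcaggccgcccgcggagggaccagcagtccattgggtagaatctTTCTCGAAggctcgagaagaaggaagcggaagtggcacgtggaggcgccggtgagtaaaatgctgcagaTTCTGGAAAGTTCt
Chordc1, chr9:18292017-18292316, plus strand: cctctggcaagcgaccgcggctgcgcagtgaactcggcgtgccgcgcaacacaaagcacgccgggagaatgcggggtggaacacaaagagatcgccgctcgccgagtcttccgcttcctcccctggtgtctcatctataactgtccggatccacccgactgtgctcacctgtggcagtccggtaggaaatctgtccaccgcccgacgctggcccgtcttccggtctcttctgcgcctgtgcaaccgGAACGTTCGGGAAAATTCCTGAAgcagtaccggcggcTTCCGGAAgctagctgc
Searched on both strands, the octamer occurred in 5.38% of 32851 promoters of this length. In Cirbp it lay at bases 4 to 11 of the printed stretch, and the second Cirbp start site had no match. GAANNTTC occurred in 7.86% and TTCNNGAA in 8.52% of the promoters, and one or the other in 15.1%. The Hsph1 stretch held 3 matches, 2 of which overlap, and the Chordc1 stretch held 5, of which 4 overlap in a chain. Neither Cirbp start site held a heat shock core. The 2 start sites of Dnajb1 held no heat shock core either. Its stretch chr8:83608298-83608597 held the octamer instead, at bases 285 to 292 on the minus strand. Calr and Hspa5, chaperone genes also lower with Rbm3 in thalamus, were searched and held no heat shock core. Of the chaperone genes searched, only the 2 shown held one. Hprt, a gene higher with Rbm3, held TTCNNGAA. For Hspa8 no promoter was available and Hspb1 was not searched, though both were lower with Rbm3 in thalamus. These are matches of letters in a window, not measured binding.

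The deposited values are on a log2 scale made for each region apart, and the scale of hippocampus and hypothalamus departs from the other 2: 769 probe sets of hippocampus and 335 of hypothalamus had means outside 0 to 16, against 0 in cortex and in thalamus. Levels were therefore compared between cortex and thalamus only, where the means of all probe sets correlated at r = 0.974. The dissections carried their markers: 6 of 7 measured cortex markers were higher in cortex and 8 of 8 thalamus markers were lower in cortex. RNA integrity ranged from 5.3 to 9.8 over the arrays, and no member probe set followed it in any region (12 tests, Pearson r between -0.07 and 0.13). The smallest unadjusted p was 0.171 (permutation test, second Rbm3 probe set in thalamus). Adjustment together with the tests of ribosomal RNA ratio, RNA concentration and in vitro transcription yield gave p = 0.997. In bulk tissue, a lower share of a cell type and less RNA per cell cannot be told apart.

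Cirbp spanned less than 1 log2 unit between mice in every region. In cortex its lowest, median and highest levels were 9.20, 9.62 and 9.95 (log2, 98 arrays), so that the highest mouse had 1.68 times the signal of the lowest. In hippocampus they were 8.40, 8.89 and 9.36 (83 arrays), a 1.94-fold range. Hypothalamus held 9.32, 9.75 and 10.07 (94 arrays), and thalamus 9.56, 9.95 and 10.29. The SD was 0.16 in cortex, 0.21 in the hippocampus, 0.13 in the hypothalamus and 0.12 in thalamus, and between 19.9% and 39.1% of all probe sets had a lower SD in the same region. Mice formed a continuous range in each region.

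Rbm3 also kept a narrow range. Its lowest, median and highest levels were 10.49, 10.81 and 11.13 in cortex and 11.55, 11.92 and 12.16 in the hippocampus, where 1 of 83 arrays has no value. Hypothalamus held 9.77, 10.10 and 10.33, and thalamus 10.18, 10.63 and 11.15. The SD lay between 0.12 in the hypothalamus and 0.17 in thalamus. The second Rbm3 probe set spread more widely, from 4.92 through a median of 6.04 to 7.04 in cortex and from 4.47 through 5.93 to 7.89 in the hippocampus. Its values ran from 3.93 through 5.06 to 5.94 in the hypothalamus and from 5.35 through 6.36 to 7.48 in thalamus. Its SD of 0.39 to 0.47 exceeded that of 88.2% to 95.7% of all probe sets. Its mean exceeded that of only 32.4% to 47.6% of them over the regions, against 81.4% to 95.5% for Rbm3. In hippocampus 1 array at each end stood apart from the others, at 7.89 and 4.47.

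**Figure D1:**
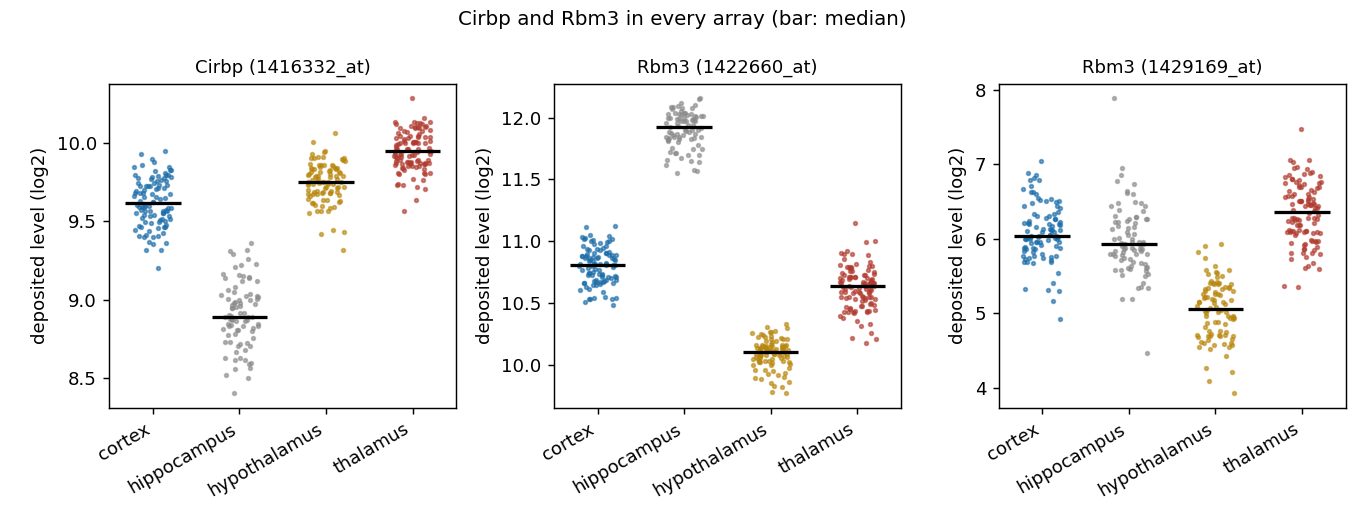
Deposited log2 level (vertical axis) of Cirbp (left), Rbm3 (middle) and the second Rbm3 probe set (right) in every array, by region (horizontal axis), with 1 point per mouse and a bar at the median. Each axis has its own range, and the regions were scaled apart, so levels were compared between cortex and thalamus only. The spread of the second Rbm3 probe set, from 4.92 to 7.04 in cortex, exceeds that of the other 2 probe sets.

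Cirbp was lower in cortex than in thalamus. The mean was 9.62 ± 0.16 in cortex (SD, n = 98) and 9.95 ± 0.12 in thalamus (SD, all thalamus arrays), a difference of -0.33 (log2, cortex minus thalamus, SE 0.019, limma, adjusted p = 1.01e-40). All 91 mice with both regions had the higher value in thalamus. Rbm3 went the other way, at 10.80 ± 0.15 in cortex and 10.62 ± 0.17 in thalamus. Its difference was 0.18 (SE 0.022, limma, adjusted p = 1.04e-13), with the higher value in cortex in 76 of the 91 mice, and the ranges of the regions overlapped widely. The second Rbm3 probe set was lower in cortex, by -0.25 (SE 0.055, limma, adjusted p = 1.17e-05), with cortex below thalamus in 65 of 91 mice, so the 2 Rbm3 probe sets had opposite signs.

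Most of the array differed between these regions, with 24.9% of 45037 probe sets called higher in cortex and 61.1% called lower, where called means an adjusted p under 0.05 over all probe sets. A call alone therefore says little about Cirbp or Rbm3. The median probe set differed by -0.15, and relative to it Cirbp differed by -0.18, Rbm3 by 0.32 and the second Rbm3 probe set by -0.10. After quantile normalization of both regions together, 17533 probe sets were higher and 19902 lower in cortex, against 11198 and 27532 before. Cirbp then differed by -0.18 and Rbm3 by 0.31, both still called. The second Rbm3 probe set lost its call, at -0.097 (limma, adjusted p = 0.0911). It also lost it among the arrays of the hybridization date that both regions share, 14 of cortex and 20 of thalamus, where the difference was -0.24 (limma, adjusted p = 0.101). In those same arrays Cirbp differed by -0.30 and Rbm3 by 0.18, both called.

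Mice high in 1 region tended to be high in another. Each probe set was correlated with itself across mice for the 6 pairs of regions, which are separate arrays. For Cirbp, r was 0.33 for cortex with hippocampus (69 mice), 0.19 for cortex with hypothalamus (80 mice) and 0.24 for cortex with thalamus (91 mice). It was 0.29 for hippocampus with hypothalamus (67 mice), 0.25 for hippocampus with thalamus (74 mice) and 0.30 for hypothalamus with thalamus (88 mice). The median of all probe sets lay between 0.038 and 0.060 in the 6 pairs. None of the 6 Cirbp correlations passed an adjustment over all probe sets (permutation test, smallest adjusted p = 0.0526), while 5 passed an adjustment over the 6 pairs alone (largest of the 5, adjusted p = 0.0424), and only 2 of those remained past it with Spearman's rho, which ranged from 0.16 to 0.33.

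For Rbm3, r was 0.36 for cortex with hippocampus, 0.23 for cortex with hypothalamus, 0.36 for cortex with thalamus, 0.60 for hippocampus with hypothalamus, 0.49 for hippocampus with thalamus and 0.44 for hypothalamus with thalamus. Over all probe sets, 4 of the 6 passed: cortex with thalamus (permutation test, adjusted p = 0.00493), hippocampus with hypothalamus (adjusted p = 0.00205), hippocampus with thalamus (adjusted p = 0.00274) and hypothalamus with thalamus (adjusted p = 0.0021). Spearman's rho for these 4 was 0.39, 0.56, 0.45 and 0.42, and without the 2 mice farthest from the median of the first-named region r was 0.39, 0.57, 0.44 and 0.42. Cortex paired with hippocampus just missed (adjusted p = 0.0506), and cortex paired with hypothalamus did not pass (adjusted p = 0.295). The share of all 45037 probe sets past the same threshold with a positive r was 5.5% for cortex with hippocampus, 6.53% for cortex with hypothalamus, 8.68% for cortex with thalamus, 8.51% for hippocampus with hypothalamus, 5.63% for hippocampus with thalamus and 7.81% for hypothalamus with thalamus.

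With r from 0.51 for cortex with hippocampus to 0.70 for cortex with thalamus, the second Rbm3 probe set correlated in all 6 pairs. All 6 passed over all probe sets (permutation test, largest adjusted p = 0.00296), and rho ran from 0.51 to 0.69. Without the 2 outlying hippocampal arrays, hippocampus gave r of 0.51 with cortex, 0.62 with hypothalamus and 0.64 with thalamus. Between 96.1% and 98.4% of all probe sets had a lower r in the same pair. Whether the 2 Rbm3 probe sets or the region pairs differ in r was not tested.

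**Figure D2:**
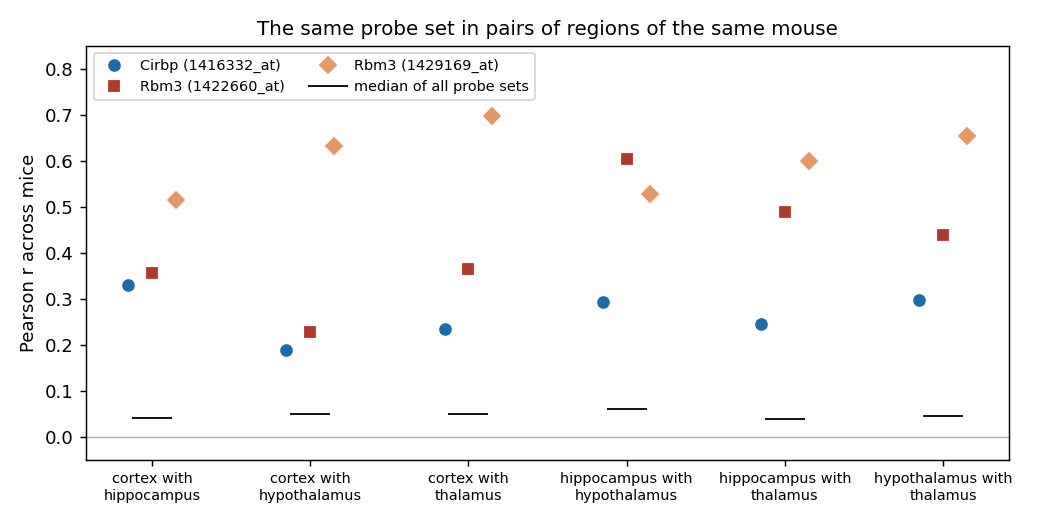
Pearson r across mice (vertical axis) between 2 regions of the same mouse (horizontal axis) for Cirbp and for both Rbm3 probe sets, with the median of all probe sets as a short bar. Cirbp lies between 0.19 and 0.33, Rbm3 between 0.23 and 0.60 and the second Rbm3 probe set between 0.51 and 0.70, all above the medians of 0.038 to 0.060.

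Cirbp and Rbm3 were positively correlated across mice in all 4 regions. Pearson's r was 0.46 in cortex (98 mice), 0.48 in the hippocampus (82 mice), 0.51 in the hypothalamus (94 mice) and 0.51 in thalamus. Spearman's rho was 0.41, 0.42, 0.53 and 0.47 in the same order, and every region passed (permutation test, adjusted p at most 4e-05). Without the 2 mice farthest from the median of Cirbp, r was 0.43, 0.42, 0.50 and 0.45. Within the hybridization date with most arrays of each region, r was 0.53 in cortex, 0.40 in the hippocampus, 0.48 in the hypothalamus and 0.52 in thalamus, and taking out RNA integrity or 5 principal components left it between 0.38 and 0.56. No difference in r between regions passed (6 region pairs, labels exchanged within mice, permutation test, smallest adjusted p = 0.791); the widest difference was -0.13, cortex minus thalamus.

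Among 45036 other probe sets, Rbm3 ranked first by its median r with Cirbp over the 4 regions, 0.49, and Cirbp ranked first by its median r with Rbm3. By single regions, Rbm3 held rank 51 for Cirbp in cortex, 21 in the hippocampus, 1 in the hypothalamus and 2 in thalamus. Each was also the only probe set called as higher with the other in all 4 regions.

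**Figure D3:**
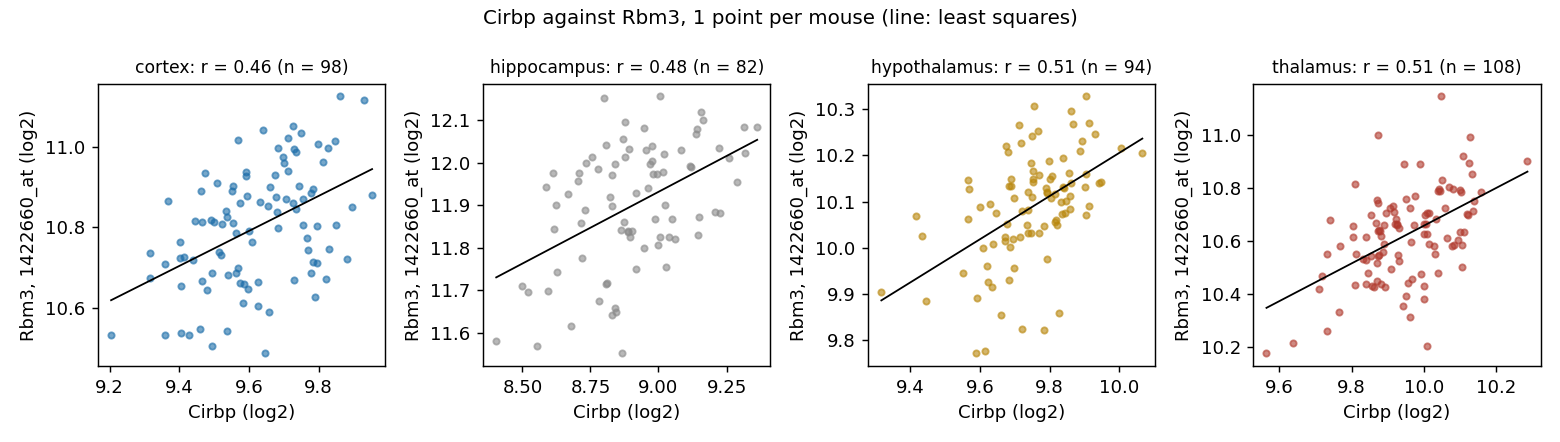
Rbm3 (vertical axis, deposited log2 level) against Cirbp (horizontal axis, deposited log2 level) in each region, with 1 point per mouse and a least-squares line. The slope is upward in all 4 panels, with r of 0.46, 0.48, 0.51 and 0.51 from left to right.

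Part of this relation could be followed between arrays. With Rbm3 from 1 region and Cirbp from another region of the same mouse, r was positive in all 12 combinations. Hypothalamic Rbm3 correlated with cortical Cirbp at 0.35 and with hippocampal Cirbp at 0.41, and hippocampal Rbm3 with cortical Cirbp at 0.32 and with hypothalamic Cirbp at 0.42. Thalamic Rbm3 correlated with Cirbp of cortex at 0.40, of hippocampus at 0.35 and of hypothalamus at 0.31. These 7 passed (permutation test, adjusted over 24 combinations, largest adjusted p = 0.0143). Cortical Rbm3 was the exception: its r with Cirbp of hippocampus was 0.082, of hypothalamus 0.17 and of thalamus 0.066, and none passed. The 2 combinations of thalamic Cirbp with Rbm3 of hippocampus (0.22) and of hypothalamus (0.23) did not pass either.

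The second Rbm3 probe set had no positive relation with Cirbp. Its r with Cirbp was -0.11 in cortex, -0.31 in the hippocampus, -0.23 in the hypothalamus and -0.28 in thalamus. The last 3 passed (permutation test, adjusted p = 0.00665, 0.0318 and 0.00594), and that of hypothalamus no longer did with Spearman's rho of -0.20 or within its main hybridization date at -0.22. In hippocampus, leaving out the 2 outlying arrays of this probe set gave -0.32, and leaving out the 2 mice with the most distant Cirbp gave -0.34. Its r with the other Rbm3 probe set was -0.05 in cortex, -0.02 in the hippocampus, -0.29 in the hypothalamus and -0.20 in thalamus. With Cirbp from another region's array, r was negative in all 12 combinations, from -0.44 to -0.02, and passed in 6 of them. Whether the r values of the 2 Rbm3 probe sets with Cirbp differ was not tested.

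The sleep and behaviour of the mice, recorded weeks before tissue was taken, gave no call with either gene. Over 19 chosen traits, 4 regions and the 3 probe sets, 228 tests had 0 calls (limma over all probe sets, smallest adjusted p = 0.388; permutation test, smallest adjusted p = 0.778), and 8 had an unadjusted p under 0.05. The share of calls over all probe sets and the 19 traits was 0.000234% in cortex, 0.000234% in the hippocampus, 0.000818% in the hypothalamus and 0.000117% in thalamus. For Cirbp, r with baseline NREM delta power, the slow-wave measure of sleep depth, ran from -0.22 to -0.08 over the regions, and r with wake after deprivation from -0.15 to 0.22. For Rbm3 the same 2 traits gave -0.10 to 0.08 and -0.19 to 0.00. The second Rbm3 probe set had a positive r with baseline NREM delta power in all 4 regions, 0.18 to 0.26, highest in cortex (94 mice, rho 0.29, permutation test, p = 0.0116 before and 0.778 after adjustment). Its strongest single relation was with wake after restraint in the hypothalamus, r = -0.39 (54 mice, rho -0.31, permutation test, p = 0.00414 before and 0.778 after adjustment), and leaving out the 2 mice with the most distant trait values gave -0.24.

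A scan of all 283 traits also gave no call. Of 3396 tests, 228 had an unadjusted p under 0.05 and 0 passed the adjustment (permutation test, smallest adjusted p = 0.441). The top entry was Rbm3 in cortex against the longest wake bout after deprivation, r = -0.37 (94 mice). Weak relations could be missed at these sizes.

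The number of transcripts that varied with Cirbp or Rbm3 differed widely between regions. Each probe set was fitted on the level of the gene across mice (limma), and slopes are given as the log2 change per 1 SD of Cirbp or Rbm3. With Cirbp in cortex, 986 probe sets were higher (2.19% of those tested) and 509 lower (1.13%). Hippocampus had 121 higher (0.269%) and 43 lower (0.0955%), hypothalamus 6 higher (0.0133%) and 6 lower (0.0133%), and thalamus 5 higher (0.0111%) and 10 lower (0.0222%). With Rbm3, cortex had 295 higher (0.655%) and 66 lower (0.147%), and hippocampus 0.231% higher and 67 lower (0.149%). Hypothalamus had 6 higher (0.0133%) and 1 lower (0.00222%), and thalamus 151 higher (0.335%) and 115 lower (0.255%). These shares are the background for every count below. Very few calls were made from another region's array: with Cirbp taken from another region, 0 to 55 probe sets were called, and with Rbm3 0 to 14. In simulated data of these array numbers the fit recovered 100 of 100 probe sets with a true r of 0.6 in each region, and 15 to 30 of 100 with a true r of 0.3. It made 4 to 10 false calls per region. The simulated noise was independent between probe sets, so recovery where probe sets vary together was not tested. Called genes of the lists are named here after their values were seen.

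A minority of the heat shock chaperones passed the test with Cirbp or Rbm3, above the share of all probe sets in some regions. Outside cortex most had a negative r. Of 18 measured cytosolic chaperone genes, r with Cirbp was negative for 10 in cortex, 15 in the hippocampus, 14 in the hypothalamus and 15 in thalamus, and with Rbm3 for 7, 13, 12 and 13. The median r with Cirbp was -0.01, -0.22, -0.06 and -0.15 in the same order, and with Rbm3 0.05, -0.14, -0.07 and -0.16, beside medians of all probe sets between -0.01 and 0.00. With Rbm3, 5 gene and region pairs of 72 passed, all lower: in thalamus Hsph1, Dnajb1, Hspa8 and Hspb1, and in the hippocampus Chordc1. Of all probe sets, 0.255% were lower with Rbm3 in thalamus and 0.149% in the hippocampus. Whether the list exceeds these shares was not tested. With Cirbp 4 were lower, Hspa1b in cortex, Dnajb4 and Chordc1 in the hippocampus and Hspa4l in thalamus, and 1 was higher, Dnajb4 in cortex. With cohort as a term, the calls with Cirbp of Dnajb4, an Hsp40, were lost in cortex (limma, adjusted p = 0.0669) and hippocampus (adjusted p = 0.0737), and so was that of Hspa4l, an Hsp110, in thalamus (adjusted p = 0.0549). Within the main hybridization date Dnajb4 in cortex (limma, adjusted p = 0.137) and Hspa4l (adjusted p = 0.16) were not called either. With Cirbp from another region's array, Dnajb4 had a negative r in 12 of 12 combinations, none called.

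Hsph1 showed the lowest median r with Rbm3 of all genes, -0.36. In thalamus its lowest, median and highest levels were 11.55, 11.72 and 12.13, and it was lower by -0.049 per SD of Rbm3 (SE 0.00899, r = -0.47, rho -0.40, limma, adjusted p = 0.00121). It was -0.34 in cortex (adjusted p = 0.0706), -0.38 in the hippocampus (adjusted p = 0.11) and -0.10 in the hypothalamus by r, none called (limma). Taken from another region of the same mouse, Rbm3 had a negative r with Hsph1 in 12 of 12 combinations, with a median of -0.21, of which 1 was called. Cirbp was likewise negative in 12 of 12, with a median of -0.19 and none called.

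Dnajb1, the Hsp40 partner of Hsp70, was lower by -0.049 per SD of Rbm3 in thalamus (SE 0.0094, limma, adjusted p = 0.00285), with an r of 0.06 in cortex. Hspa8, the constitutive Hsp70, was lower by -0.027 there (SE 0.0062, limma, adjusted p = 0.0178). Hspa1b, the inducible Hsp70, was lower by -0.099 per SD of Cirbp in cortex (SE 0.023, limma, adjusted p = 0.00684). With Rbm3 in cortex its slope was -0.011 (adjusted p = 0.896). Hsp90aa1, the inducible Hsp90, passed with neither gene in any region, with r between -0.07 and 0.16. Chordc1 was lower in the hippocampus by -0.052 per SD of Cirbp (SE 0.013, limma, adjusted p = 0.0476) and by -0.057 per SD of Rbm3 (SE 0.013, limma, adjusted p = 0.0288), and neither call held with cohort as a term (adjusted p = 0.0875 with Cirbp and 0.0601 with Rbm3) or within the main hybridization date (adjusted p = 0.066 and 0.0551). Whether the slopes differ between regions was not tested.

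Of 14 measured chaperones of the endoplasmic reticulum, r with Cirbp was negative for 9 in cortex, 14 in the hippocampus, 11 in the hypothalamus and 12 in thalamus, with medians of -0.08, -0.15, -0.09 and -0.19. Calr, the calcium-binding lectin chaperone calreticulin, was lower by -0.059 per SD of Cirbp in cortex (SE 0.012, r = -0.44, limma, adjusted p = 0.00159) and by -0.056 in thalamus (SE 0.0093, r = -0.50, limma, adjusted p = 0.000293). In cortex Hyou1 was also lower with Cirbp, a call lost within the main hybridization date (adjusted p = 0.0622), and Canx was higher. A probe set of Hspa5 other than the one read for the list was lower with Cirbp in at least 2 regions. With Rbm3, Calr, Hspa5 (BiP) and Manf were lower in thalamus, Calr by -0.048 (SE 0.0097, limma, adjusted p = 0.00587). Hspa5 lost its call within the main hybridization date (limma, adjusted p = 0.0512) and Manf with cohort as a term (adjusted p = 0.0592). Calr had a negative r with Cirbp from another region in 12 of 12 combinations, median -0.28, none called.

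Other lists held few calls. Of 6 mitochondrial chaperones, Hspe1 was higher with Cirbp and Hspa9 with Rbm3, both in cortex, and of 2 measured heat shock factors and the binding protein Hsbp1 none was called. The call of Hspa9 was lost with cohort as a term (limma, adjusted p = 0.0763) and within the main hybridization date (adjusted p = 0.219), and Hspe1 had a negative r with Cirbp of another region's array in 12 of 12 combinations, none called. Of 16 core clock genes, Nr1d2 and Dbp, the latter an output gene of the clock, were higher with Cirbp in cortex. Dbp was higher by 0.073 per SD (SE 0.019, limma, adjusted p = 0.0194), a call lost within the main hybridization date (adjusted p = 0.0629). That of Nr1d2 was lost with cohort as a term (adjusted p = 0.0645). No clock gene was called with Rbm3. Of 11 temperature-sensing kinases and splicing factors, Srsf3, a splicing regulator, was higher with Rbm3 in cortex by 0.056 (SE 0.014, limma, adjusted p = 0.0304) and in thalamus by 0.057 (SE 0.012, limma, adjusted p = 0.0111). Within the main hybridization date neither Srsf3 call remained (adjusted p = 0.257 in cortex and 0.0537 in thalamus), and with cohort as a term that of cortex was lost (adjusted p = 0.0615). Of 7 other glycine-rich RNA-binding protein genes none was called with either gene at the probe set read for it. Another probe set of Hnrnpdl, which belongs to this list, was higher with Cirbp in at least 2 regions. Of 7 partners and regulators in cooling, Txn1 was higher with Cirbp in cortex. Of 16 immediate early genes, Egr1 was lower with Cirbp in cortex and Fos lower with Rbm3 in thalamus (r = -0.34, limma, adjusted p = 0.0407), and of 8 glucocorticoid targets Zbtb16 was lower with Cirbp in cortex. A probe set of the immediate early gene Homer1 other than the one read for the list was lower with Cirbp in at least 2 regions. With cohort as a term, the calls of Egr1 (limma, adjusted p = 0.06), Fos (adjusted p = 0.0598) and Zbtb16 (adjusted p = 0.063) were lost. Within the main hybridization date that of Egr1 was lost (adjusted p = 0.071). Taken from another region's array, Cirbp gave 8 lower and 0 higher calls in 192 combinations of immediate early gene and regions. Rbm3 gave 3 lower and 0 higher calls. Fos had a negative r with Cirbp of another region in every combination, called in cortex with thalamic Cirbp (limma, adjusted p = 0.0396).

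Markers of other tissue moved with Cirbp in cortex, beside its long list of calls. Higher with Cirbp there were 2 of 8 thalamus markers (Slc17a6 and Prkcd), 2 of 9 hypothalamus markers (Avp and Oxt), 1 of 7 striatum markers (Gpr6), 1 of 8 choroid plexus markers (Clic6), 1 of 7 meningeal and mural markers (Dcn) and 1 of 8 hippocampus markers (Wfs1). Lower were Nptx1 of the hippocampus markers and Rbfox3, 1 of 8 neuron markers. Gpr6 was also higher with Cirbp in the hippocampus. With Rbm3, Aqp4 of 8 astrocyte markers was higher in cortex and Opalin of 8 oligodendrocyte markers in the hippocampus, and no marker of cortex, microglia, endothelium or blood was called with Cirbp or Rbm3. With cohort as a term, the calls of Dcn (limma, adjusted p = 0.0508), Wfs1 (adjusted p = 0.0695), Aqp4 (adjusted p = 0.0522) and Opalin (adjusted p = 0.0767) were lost. Within the main hybridization date those of Avp (limma, adjusted p = 0.167), Oxt (adjusted p = 0.119), Clic6 (adjusted p = 0.0568), Wfs1 (adjusted p = 0.175), Aqp4 (adjusted p = 0.223) and hippocampal Gpr6 (adjusted p = 0.111) were lost. The part of tissue makeup in these results was not tested.

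**Figure D4:**
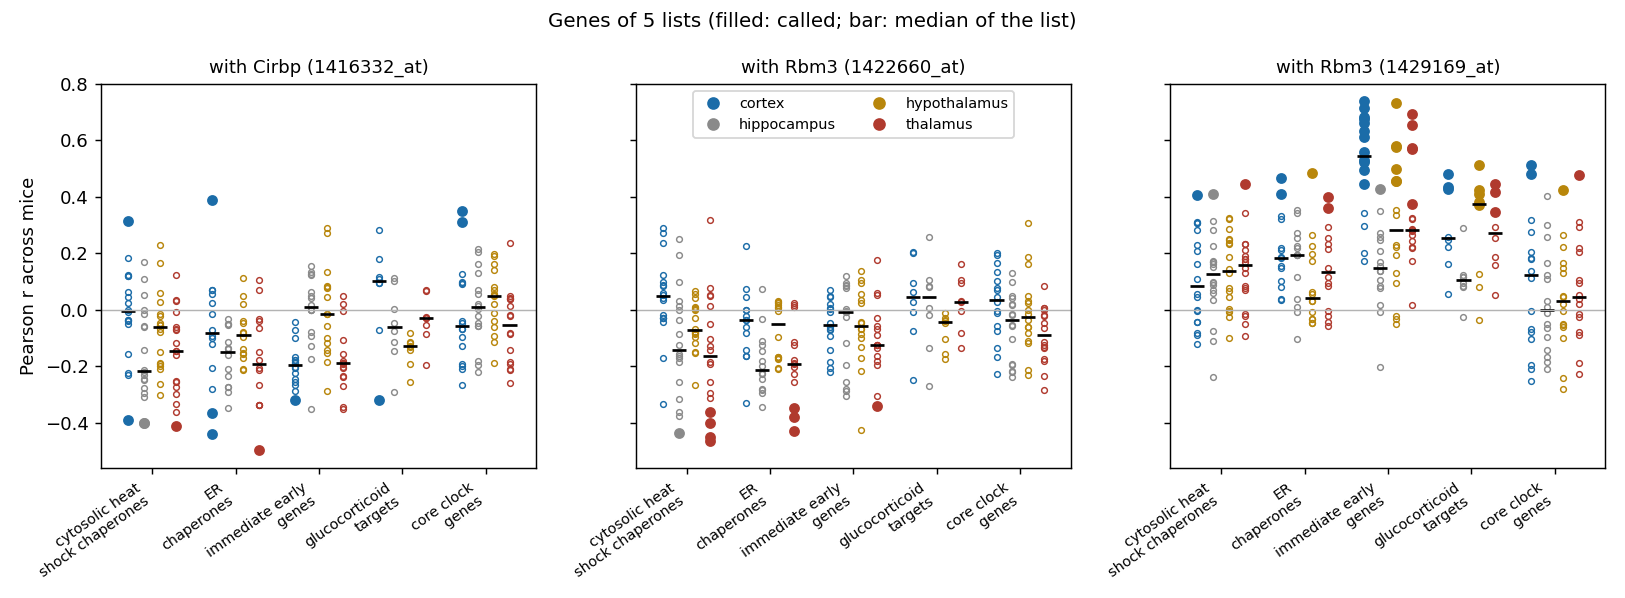
Pearson r across mice (vertical axis) of each gene of 5 lists (horizontal axis) with Cirbp, with Rbm3 and with the second Rbm3 probe set, coloured by region, filled where the gene was called and with a bar at the median of the list. Chaperone medians lie mostly below 0 for the first 2 probe sets, and immediate early genes reach 0.74 in cortex for the third.

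The genes most like Cirbp by median r over the 4 regions were Cetn3, Ctnna2, Hint2, Mzt2, Hmgb3, Ccdc103, Gnb4, Armcx5, Gpr137c and 2410002F23Rik, from 0.40 for Cetn3 to 0.32, where the 99th percentile over 18192 genes was 0.21. Cetn3, which encodes a centrin, was called in 3 regions with r of 0.39 in cortex, 0.45 in the hippocampus and 0.41 in thalamus, and had 0.18 in the hypothalamus. The genes least like Cirbp were P4ha1, Ppp2r1b, Npepps, Calr and Yy1, from -0.38 to -0.32. P4ha1, a collagen prolyl hydroxylase subunit, was called in the hippocampus (r = -0.45) and thalamus (r = -0.47) and was negative in 12 of 12 combinations across arrays.

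For Rbm3 the most alike were Hprt, Rtraf, Mrps33, Psmc1, Zfas1, Pir, Hmgb3, Rbmx, Sec11c and Cetn3, from 0.42 to 0.32. Hprt, a purine salvage enzyme, was called in 3 regions, with r of 0.38 in cortex, 0.46 in the hippocampus and 0.49 in thalamus. Hprt, Pir, Hmgb3 and Rbmx, 4 of the 10, lie on chromosome X, as Rbm3 does. Among all single-gene probe sets called with Rbm3, 5.08% in cortex, 4.05% in the hippocampus, 0 of 6 in the hypothalamus and 4.93% in thalamus lay on X, beside 3.23% of those on the array. For the second Rbm3 probe set the share on X was 1.40% to 2.29% over the regions. On chromosome 1, which holds Rbm3-ps, lay 19 of its 175 single-gene calls in cortex and 10 of 100 in the hippocampus. Hypothalamus had 11 of 270 there and thalamus 10 of 143, beside 6.18% of those on the array. Whether these shares differ was not tested. The genes least like Rbm3 were Hsph1, Hdac4, Tmem151b, Calr and Nkd1, from -0.36 to -0.30. Cetn3 and Hmgb3 stood among the 10 genes most like both members, and Calr among the 5 least like both. From another region's array these relations were weak: the median r of Cetn3 with Cirbp was 0.082 and of Hprt with Rbm3 0.073.

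The second Rbm3 probe set varied with activity-regulated genes. It was called as higher with 136 probe sets (0.302%) and lower with 56 (0.124%) in cortex, 76 (0.169%) and 50 (0.111%) in the hippocampus, 239 (0.531%) and 82 (0.182%) in the hypothalamus, and 0.231% and 65 (0.144%) in thalamus. The gene most like it was Fos, the immediate early transcription factor induced by neuronal activity. Fos had lowest, median and highest levels of 7.49, 9.03 and 10.56 in cortex and 7.79, 9.29 and 10.59 in thalamus. Its r with the second Rbm3 probe set was 0.68 in cortex, 0.43 in the hippocampus, 0.73 in the hypothalamus and 0.70 in thalamus, and rho was 0.65, 0.44, 0.74 and 0.72 in the same order. It was called in all 4 regions, higher by 0.48 per SD in cortex (SE 0.051, limma, adjusted p = 1.44e-11), 0.21 in the hippocampus (SE 0.049, adjusted p = 0.0316), 0.39 in the hypothalamus (SE 0.037, adjusted p = 2.81e-13) and 0.38 in thalamus (SE 0.037, adjusted p = 1.69e-13). Without the 2 outlying hippocampal arrays, r in the hippocampus was 0.40, Fos was still called there (limma, adjusted p = 0.0467) and 0.342% of all probe sets were called. With the other Rbm3 probe set, Fos had r of -0.07, -0.01, -0.17 and -0.34, and with Cirbp -0.21, -0.08, -0.10 and -0.35, in the same order of regions.

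**Figure D5:**
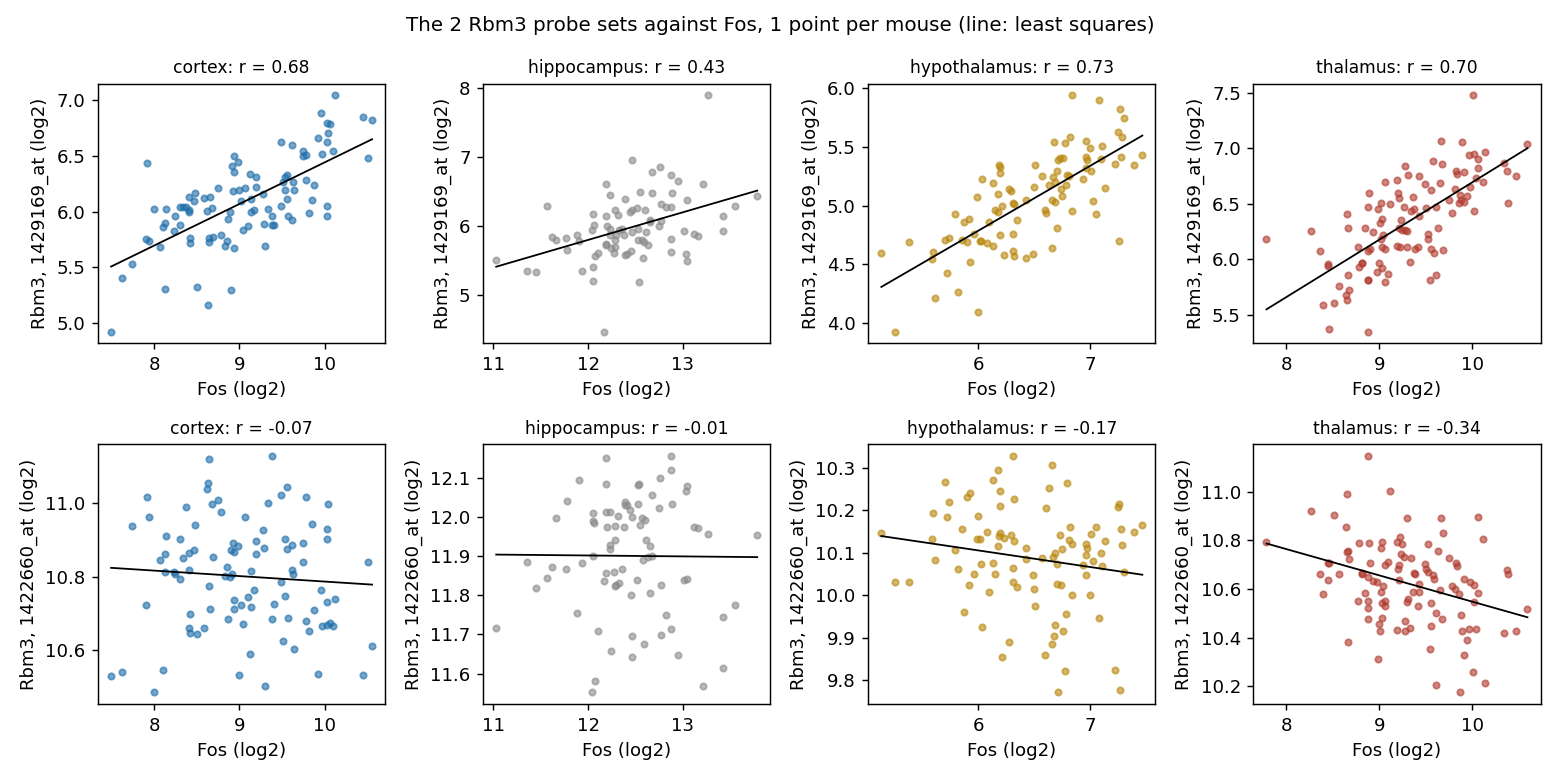
The 2 Rbm3 probe sets (vertical axes, deposited log2 level; the second one in the upper row, the first in the lower) against Fos (horizontal axes, deposited log2 level) in each region, with 1 point per mouse and a least-squares line. The upper panels slope upward, with r of 0.68, 0.43, 0.73 and 0.70, and the lower ones do not, with r of -0.07, -0.01, -0.17 and -0.34.

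The relation with Fos held across arrays. With the second Rbm3 probe set taken from another region of the same mouse, r with Fos was positive in 12 of 12 combinations and called in 11, with a median of 0.59 and a range of 0.46 to 0.73. Next in likeness came Nr4a1, Dusp1, Egr1, Nr4a3, Per2, Nfkbia, Rpl7l1, Dusp4 and Mknk2, with median r from 0.57 to 0.43. Nr4a1 and Nr4a3 are orphan nuclear receptors, Dusp1 and Dusp4 phosphatases of MAP kinases and Egr1 a zinc finger transcription factor, all known as activity-induced. In hippocampus Nr4a1 had r of 0.08, Dusp1 0.21 and Egr1 0.14, none called there.

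Of 16 immediate early genes, 12 were higher with this probe set in cortex, 1 in the hippocampus, 6 in the hypothalamus and 5 in thalamus, and none was lower in any region. In cortex the 12 were Fos, Fosb, Junb, Egr1, Egr2, Egr4, Arc, Nr4a1, Ier2, Npas4, Dusp1 and Btg2. Arc, a synaptic plasticity gene, had r = 0.74 and was higher by 0.54 per SD there (SE 0.049, limma, adjusted p = 4.94e-15). The median r of the list was 0.54 in cortex, 0.15 in the hippocampus, 0.28 in the hypothalamus and 0.28 in thalamus, beside medians of all probe sets of 0.00 in all 4 regions. With this probe set from another array, 55 of 192 gene and region combinations were called, all higher.

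Among 8 glucocorticoid targets, 3 were higher with the second Rbm3 probe set in cortex, 5 in the hypothalamus and 3 in thalamus: Nfkbia and Tsc22d3 in these 3 regions, Per1 in cortex and hypothalamus, Sgk1 in the hypothalamus and thalamus and Ddit4 in the hypothalamus. The call of Tsc22d3 in the hypothalamus was lost with cohort as a term (limma, adjusted p = 0.0654) and within the main hybridization date (adjusted p = 0.253), and that of Sgk1 in thalamus also with RNA integrity as a term (adjusted p = 0.0911, 0.102 with cohort and 0.076 on the main date). Of the clock genes, Per1 was called in cortex and hypothalamus and Per2 in cortex and thalamus. Clk1, a kinase of splicing factors, was higher in cortex, hippocampus and hypothalamus, by 0.057, 0.053 and 0.049 per SD, while Srsf6 was higher in cortex and Tra2a in the hypothalamus. Clk1 in the hippocampus lost its call with cohort as a term (limma, adjusted p = 0.0704), on the main date (adjusted p = 0.0528) and without the 2 outlying arrays (adjusted p = 0.0793), and Srsf6 on the main date (adjusted p = 0.0697).

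As for chaperones, 3 of 72 cytosolic pairs of gene and region were called as higher with the second Rbm3 probe set (Chordc1 in cortex, Dnajb4 in the hippocampus, Dnajb1 in thalamus) and 5 of 56 of the endoplasmic reticulum (Sdf2l1 and Manf in cortex and thalamus, Creld2 in the hypothalamus). Hspd1 was the mitochondrial chaperone called, in cortex. Lower were Cldn5, a tight junction protein of brain endothelium, in the hypothalamus and thalamus, and Opalin in the hypothalamus, and the other marker lists held no call. With cohort as a term, the calls of Dnajb4 (limma, adjusted p = 0.0972), thalamic Sdf2l1 (adjusted p = 0.0784) and Opalin (adjusted p = 0.0855) were lost, and without the 2 outlying arrays that of Dnajb4 (adjusted p = 0.134). Within the main hybridization date those of Chordc1 (limma, adjusted p = 0.0518), thalamic Sdf2l1 (adjusted p = 0.111), Hspd1 (adjusted p = 0.0607), hypothalamic Cldn5 (adjusted p = 0.0614) and Opalin (adjusted p = 0.0808) were lost. Of the 4 Hspa8 probe sets, singled out after its values were seen, 1 was higher in all 4 regions, by 0.22, 0.18, 0.25 and 0.20 per SD, and the other 3 in none.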

How the data were processed

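Per the submitters' processing notes, the arrays were processed with affy and RMA (robust multi-array average). The authors deposited 1 log2 value per probe set and array, and the notes name no version of these tools. Going by the values, each region was normalized apart and cohort effects had been removed before deposit. Cohort explained a median of 0.702% to 1.52% over the regions, against 7.48% to 8.60% by chance. The main fits had no cohort term and did not count the degrees of freedom used by that removal, so their p may be too small. Whether a call lost with cohort as a term depends on cohort or on this count was not tested. Behaviour and sleep traits are other deposited values per mouse, in the units of the authors' table. No per-sample column was left unused. The arrays' number limits the precision.

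The members, the gene lists, the traits and the second Rbm3 probe set's analysis were chosen with earlier results of these data known. Analysis of that probe set, and its values without 2 outlying hippocampal arrays, were added after seeing the data. The planned rule took probe sets annotated to a gene alone. Rbm3 has none, so both shared with its pseudogene were used, with the one of higher mean as the main one. Fits used limma 3.58.1 in R 4.3.3 on the log2 values, with Benjamini-Hochberg adjustment over all 45037 probe sets and a threshold of 0.05. Missing values of an outcome were set to the region's mean. Correlations used permutation tests, two-sided, with 100000 permutations (smallest p 1e-05) or 10000 shared by all probe sets (smallest p 0.0001), in Python 3.11.15 with numpy 2.4.6, pandas 2.3.3 and scipy 1.17.1. Each mouse is 1 replicate. Named genes were the 10 most and 5 least alike by median r, 5 set chaperones, and of each list up to 6 called in 3 regions or else the 2 with the largest absolute t. Genes of the lists that were called in fewer regions are named as well, after their values were seen, and list genes without a call are mostly given as counts and medians only. The fits were tested on simulated data. Alternatives were cohort, RNA integrity, date, principal components, Spearman's rho, quantile normalization, the animal as a block and the member's level from another region.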

Additional observations from a re-analysis of the deposited data

How the results depend on the processing

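With the animal as a replicate block, which pairs the regions of a mouse, the cortex minus thalamus differences were -0.33 for Cirbp, 0.18 for Rbm3 and -0.25 for the second Rbm3 probe set, and no call changed. The call of the second Rbm3 probe set was lost with quantile normalization (-0.097), with date as a term and on the shared date alone (both -0.24). Of 5 Cirbp region pairs past the adjustment over 6, Spearman's rho left 2 and the main date 2. With 5 principal components removed 3 passed, of which 2 were among the 5 and the other was cortex with hypothalamus. Cirbp with Rbm3 lost its call for cortical Rbm3 with Cirbp of hippocampus (0.082), hypothalamus (0.17) and thalamus (0.066), and for Cirbp of thalamus with Rbm3 of hippocampus (0.22) and hypothalamus (0.23). Cirbp with the second Rbm3 probe set gained a call for cortex with Cirbp of hippocampus (-0.35) and thalamus (-0.28). It lost its call for hippocampus with Cirbp of cortex (-0.21) and hypothalamus (-0.26), for hypothalamus with rho (-0.20), the main date (-0.22) and Cirbp of cortex (-0.087) or hippocampus (-0.21), and for thalamus with Cirbp of cortex (-0.025).

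The share of probe sets called (limma) moved most. For Cirbp, the 3.32% of cortex became 2.15% with cohort as a term, and 0.00222%, 0% and 0.122% with Cirbp of hippocampus, hypothalamus and thalamus. The 0.364% of hippocampus became 0.231% with cohort, 0.124% on the main date, and 0%, 0.00222% and 0% from cortex, hypothalamus and thalamus. Hypothalamus had 0.0266%, which became 0.00888% with cohort and 0% on the main date and from each other region. Thalamus had 0.0333%, which became 0.0178% with cohort and on the main date, and 0%, 0.00222% and 0.0111% from cortex, hippocampus and hypothalamus.

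For Rbm3, the 0.802% of cortex became 0.357% with cohort, 0.0289% on the main date, and 0%, 0.00222% and 0.0311% from hippocampus, hypothalamus and thalamus. The 0.38% of hippocampus became 0.12% with cohort, 0.195% on the main date, and 0%, 0% and 0.00444% from cortex, hypothalamus and thalamus. Hypothalamus had 0.0155%, which became 0.00222% on the main date and 0% from each other region. Thalamus had 0.591%, which became 0.353% with cohort and 0% from each other region. With the second Rbm3 probe set in place of the first, the share was 0.426% in cortex, 0.713% in the hypothalamus and 0.375% in thalamus. Taken from another region, that probe set gave 0.04%, 0.266% and 0.5% in cortex (from hippocampus, hypothalamus and thalamus) and 0.271%, 0.06% and 0.204% in thalamus (from cortex, hippocampus and hypothalamus). In the hypothalamus it gave 0.129%, 0.0111% and 0.184% (from cortex, hippocampus and thalamus). Its 0.28% of hippocampus became 0.118% with cohort, and 0.0999%, 0.0222% and 0.142% from cortex, hypothalamus and thalamus. Of single genes of the lists in single regions, 34 lost a call under at least 1 of RIN, cohort, the main date or the 2 outlying hippocampal arrays left out, and 8 gained one.

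With the predictor from another region's array, 79 such results kept their sign and lost their call under at least 1 region, and 16 called ones turned their sign under at least 1, with no call there. In cortex the slopes with Cirbp of hippocampus, hypothalamus and thalamus became -0.011, -0.013 and -0.011 for Dnajb4, -0.0078, -0.0035 and -0.0090 for Hspe1, -0.0084, -0.027 and -0.0093 for Nr1d2, and 0.0097, 0.017 and 0.0062 for Rbfox3. Those with Rbm3 became -0.028, -0.032 and -0.0035 for Aqp4 and -0.013, -0.033 and -0.0054 for Srsf3. With hypothalamic Cirbp, cortical slopes became -0.072 for Avp, -0.058 for Clic6, -0.0069 for Dbp, -0.025 for Gpr6, -0.029 for Oxt, -0.078 for Prkcd, -0.0019 for Wfs1 and -0.0012 for Canx, and with thalamic Cirbp -0.011 for Canx and -0.015 for Txn1. With hippocampal Cirbp, Hspa4l in thalamus became 0.0011. The causes were not tested.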
